A study of Rattus norvegicus with 3 samples.

Results

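Arterial-leaning endothelial nuclei of the rat heart were described here, as a set of 1302 of 24664 nuclei from 3 libraries. They numbered 419 of 9964 nuclei in the WT library, 470 of 6810 in the BMD library and 413 of 7890 in the DMD library. A member was chosen by its own counts of unique molecular identifiers (UMIs), which stand for single captured RNA molecules. At least 0.6% of its UMIs had to come from the endothelial genes Flt1, Cyyr1, Aqp1, Cdh5, Emcn, Ptprb and Egfl7. The arterial genes Btnl9, Sox17, Efnb2, Dll4, Prom1, Ablim3 and Myo10 had to sum to at least 2 UMIs, and to more than the venous genes Unc5c, Slco2a1, Aplnr, Samd5, Pde1c, Thsd7a and Rasa4. Nuclei were left out if a gene trio of another cell type summed to more than 1 UMI. The trios were Ccl21, Reln and Mmrn1 (lymphatic), Nrg1, Cgnl1 and Pkhd1l1 (endocardial), and Dcn, Pdgfra and Bicc1 (fibroblast). These genes therefore describe the members and show nothing further about them. Venous-leaning nuclei, taken by the mirror image of the arterial and venous condition, numbered 498, 355 and 520, and 228, 136 and 228 endothelial nuclei met neither condition.

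The nuclei came from the apex of the heart, with part of the septum and of both ventricles, of Sprague Dawley rats aged 12 months. The BMD line carries an in-frame deletion of exons 45 to 47 of Dmd and models Becker muscular dystrophy, in which a shortened dystrophin is made. The DMD line lacks exon 52 and models Duchenne muscular dystrophy, and the WT animals were littermates without a deletion. The BMD deletion was made with CRISPR/Cas9. Neither model is limited to a cell type, and nuclei were sorted by their DNA stain before droplet sequencing with a 10x Genomics kit. Each genotype had 1 library, so no test between genotypes was run, no p-value is given, and genotype, animal and library cannot be told apart. All intervals are at 95% and cover counting error only.

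The WT library held 21609238 UMIs, the BMD library 21142346 and the DMD library 19215994. The members of WT carried 345758 UMIs, with a median of 768 per nucleus. Those of BMD carried 520102, with a median of 1013, and those of DMD 391281, with a median of 838. Members were thus deepest in BMD. WT and BMD shared 20 nucleus barcodes, WT and DMD 12, and BMD and DMD 12. Among members, 1 of WT shared its barcode with a BMD nucleus, and of BMD 1 did so with a WT nucleus and 1 with a DMD nucleus.

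Arteries, capillaries and veins are lined by endothelial cells that differ in their genes. Arterial identity is set by vascular endothelial growth factor (VEGF) and Notch signalling together with transcription factors of the SoxF family, of which Sox17 is one. Dll4 is a Notch ligand and Efnb2 the ephrin ligand by which arterial cells are classically told from venous cells, which carry the receptor Ephb4. Btnl9 is a butyrophilin-like membrane protein, and Kdr is the main VEGF receptor. In the heart most endothelial cells belong to capillaries, whose arterial ends share genes with arterioles.

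Of the 5 marker genes, Sox17, Btnl9, Efnb2 and Dll4 helped to choose the members, and Kdr did not. CPM, used from here on, is the UMIs of a gene per 1000000 UMIs summed over the members of a library. Sox17 (ENSRNOG00000027357) had 176 CPM in WT, 346 in BMD and 296 in DMD. Its level was lowest in WT. Btnl9 (ENSRNOG00000046377) had 333, 367 and 256 CPM. Efnb2 (ENSRNOG00000014648) had 952, 781 and 728 CPM and was highest in WT, while Dll4 (ENSRNOG00000014011) had 176, 163 and 171 CPM. Kdr (ENSRNOG00000046829) had 483 CPM in WT, 465 in BMD and 532 in DMD, against 190, 188 and 225 CPM in venous-leaning nuclei and 63.3, 101 and 94.9 CPM in non-endothelial nuclei. In the endothelial nuclei that met neither condition Kdr had 358, 415 and 455 CPM. Kdr, which the selection had not used, was therefore higher in the members than in venous-leaning and non-endothelial nuclei, while the BMD value of the endothelial nuclei of neither class lay inside the members' interval of 409 to 528.

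**Figure D1:**
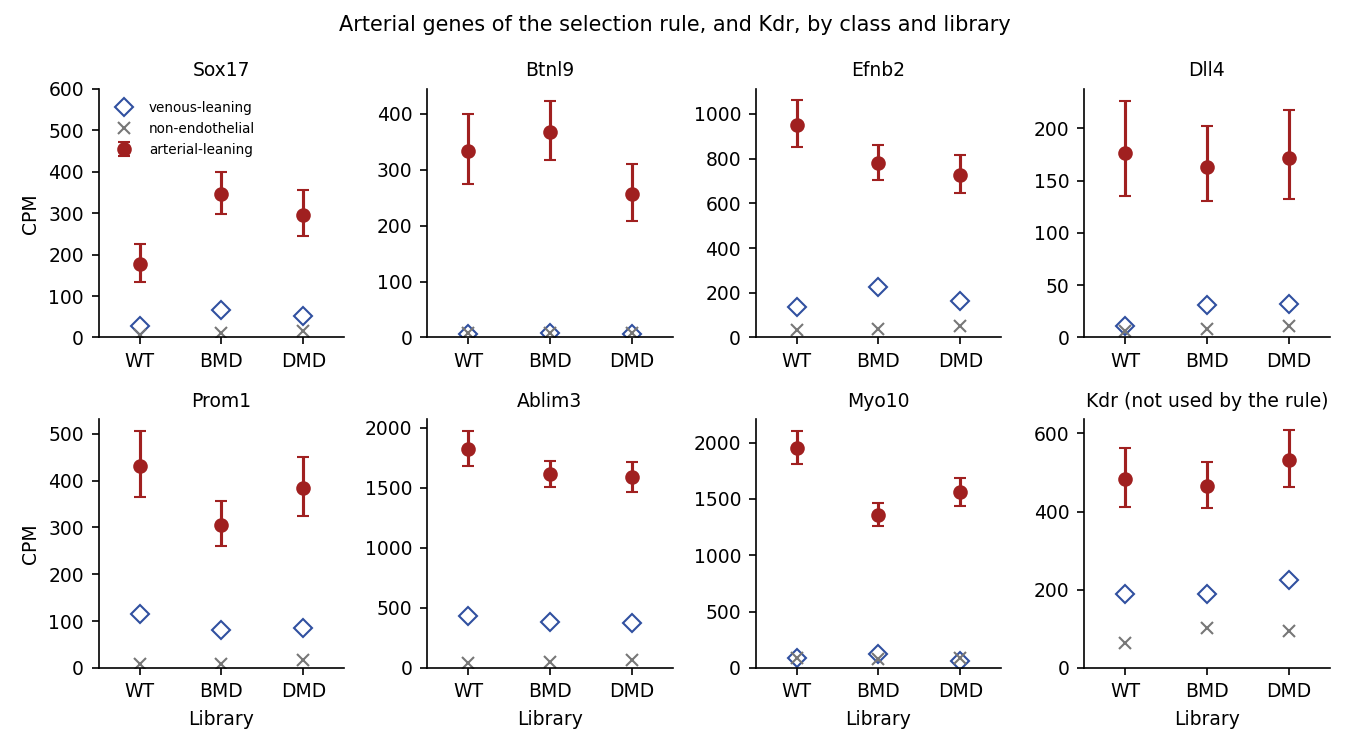
CPM (vertical axis, linear, from 0) of the 7 arterial genes that chose the members and of Kdr in each library. Filled points are arterial-leaning nuclei with exact Poisson 95% intervals, open diamonds venous-leaning nuclei and crosses non-endothelial nuclei. Kdr, the gene not used, stood between 465 and 532 CPM in the members and at or under 225 CPM in the other classes shown.

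Sox17 and Btnl9 gave the set its working name, but the members did not all carry them. A UMI of either gene was found in 115 WT members (27.4%), 208 BMD members (44.3%) and 152 DMD members (36.8%), and UMIs of both in 11, 24 and 12. Most arterial UMIs came from Ablim3, an actin-binding protein, and Myo10, an unconventional myosin of filopodia, which together made up 64.6% of the arterial sum in WT, 60.2% in BMD and 63.2% in DMD. UMIs of at least 2 of the 7 arterial genes were found in 85.4%, 88.7% and 87.7% of members. A UMI of Sox17 was found in 11.9%, 25.1% and 20.8% of members. In non-endothelial nuclei, which should lack the gene, the share was 0.817%, 1.75% and 2.46%, at a median depth of 1343, 1637 and 1355 UMIs. The set is therefore best read as arterial-leaning, by the sum of 7 genes, and not as cells that each showed Sox17 and Btnl9.

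The selection thresholds cut through a continuous range. The median arterial sum was 4, 5 and 4 UMIs for WT, BMD and DMD, with highest sums of 19, 20 and 22. At the lower edge, 88, 76 and 82 members had an arterial sum of exactly 2. Just outside lay 51, 41 and 47 otherwise qualifying nuclei with an arterial sum of 1 and no venous UMI. In 36, 53 and 61 members the arterial sum was ahead of the venous sum by 1 UMI. The endothelial share was between 0.6% and 0.7% in 42, 57 and 57 members, while 43, 42 and 51 nuclei met the other conditions but lay between 0.5% and 0.6%.

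Next, the members were set beside the venous-leaning nuclei of the same library. The selection made this contrast, so the values are a description. Among 6778 genes that had not been used to select and had at least 60 UMIs in both classes together, 84 were at least 2-fold higher in the members in each of the 3 libraries and 80 at least 2-fold lower. The 10 highest were Nox4, Unc5b, Rbp7, Mecom, Alpl, Clmn, Gpc4, Kit, Arap2 and Dgke. Nox4, an NADPH oxidase of the vessel wall, had 217, 325 and 245 CPM in WT, BMD and DMD members against 27.4, 33.5 and 18.5 CPM in venous-leaning nuclei. Unc5b, a netrin receptor of arterial endothelium and tip cells, had 246, 192 and 174 CPM against 19.0, 37.7 and 25.2 CPM. Mecom, a zinc finger transcription factor that preserves arterial identity, had 521, 481 and 365 CPM against 90.7, 115 and 77.4 CPM. For each of these genes the members lay above the venous-leaning nuclei in all 3 libraries, and no level of one class met a level of the other.

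On the low side stood Vcam1, Insr, AABR07005821.1, Nr2f2, Hgf and Zbtb7c. Nr2f2, the transcription factor of venous fate, had 26.0, 25 and 28.1 CPM in the members against 224, 224 and 281 CPM in venous-leaning nuclei. Insr, the insulin receptor, had 49.2, 86.5 and 118 CPM against 1002, 1057 and 929 CPM. Vcam1, an adhesion molecule for leukocytes, had 8.68, 15.4 and 15.3 CPM against 344, 308 and 229 CPM. All of these were several-fold lower in the members of every library.

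Levels of the listed arterial genes ranged widely. Of 30 listed arterial genes not used to select, 22 had at least 60 UMIs over the members, and 4 of these were at least 2-fold above the venous-leaning nuclei in each library and 1 at least 2-fold under them. Over all 4273 genes with that many UMIs, 86 were above and 34 under. Of the 22 capillary genes with that many UMIs, 4 were above and 0 under, so the contrast was not limited to the arterial list. Gja5, a connexin of arterial endothelium, had 57.8, 82.7 and 51.1 CPM. Stmn2 had 0 UMIs in the members of all libraries. The 23 capillary genes found in the files summed to 18504 CPM in WT, 16124 in BMD and 16919 in DMD, against 8607, 8827 and 7774 CPM for the arterial list. Their most abundant gene was Dach1, a transcription factor of arterial-side capillaries, with 3985, 3717 and 2604 CPM. In venous-leaning nuclei the capillary list summed to 15890, 13661 and 13773 CPM and the arterial list to 7010, 7387 and 6863 CPM, so that both lists were high there too. The venous list summed to 2447, 2409 and 3054 CPM in the members and to 5136, 4623 and 5559 CPM in venous-leaning nuclei.

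Within the members, 483 nuclei had an arterial sum of 2 to 3, 506 one of 4 to 6, and 313 one of 7 or more. Cxcl12, a chemokine made by arterial endothelium, had 380 CPM in the lowest of these tiers, 476 in the middle and 666 in the highest. Nr2f2 had 36.8, 32.9 and 5.51 CPM, the last of these on 2 UMIs. Eln, which encodes elastin, had 463, 404 and 239 CPM. Tiers of a higher sum also hold deeper nuclei and mix the libraries in other shares, and the part of either was not tested.

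Members with a UMI of Sox17 or Btnl9 were then set beside those without, as a description. Cxcl12 had 790 CPM in WT members with either gene and 411 CPM in those without, 615 and 372 CPM in BMD, and 595 and 449 CPM in DMD. Aqp1, a water channel of capillaries and venules that belonged to the endothelial sum, had 470 and 981 CPM in WT, 193 and 428 CPM in BMD, and 497 and 910 CPM in DMD. In each library the members with Sox17 or Btnl9 had more Cxcl12 and less Aqp1. The listed arterial genes summed to 9677 against 8172 CPM in WT, 9824 against 8021 in BMD and 8507 against 7305 in DMD, all higher in the members with either gene. The capillary list was not lower in them, at 19014 against 18297 CPM in WT, 16694 against 15662 in BMD and 17106 against 16799 in DMD, so that the lower Aqp1 does not stand for that list. The venous list was lower in them in WT (1869 against 2682 CPM) and BMD (2180 against 2595), and not in DMD (3089 against 3032). The median depth with and without either gene was 786 against 759 UMIs in WT, 1045 against 996.5 in BMD and 886.5 against 817 in DMD.

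The first comparison between genotypes asked how many nuclei of a library were members. Members made up 4.21% of WT nuclei (exact Clopper-Pearson interval 3.82 to 4.62), 6.90% in BMD (6.31 to 7.53), and 5.23% of the nuclei of DMD (4.75 to 5.75). The share was above WT by 2.70 percentage points in BMD (Newcombe interval 1.99 to 3.43) and by 1.03 points in DMD (0.404 to 1.67). Venous-leaning nuclei made up 5.0%, 5.21% and 6.59%. Among the arterial-leaning and venous-leaning nuclei together, the members took 45.7% for WT, 57.0% for BMD and 44.3% for DMD. BMD lay 11.3 points above WT (6.58 to 15.9), and DMD lay within counting error of it, at -1.43 points (-5.95 to 3.10).

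A minimum of 2 UMIs is met more often in deeper nuclei, and BMD nuclei were the deepest. With each nucleus thinned to 500 UMIs before the selection, members made up 3.90%, 5.51% and 4.73% of all nuclei. BMD was then 1.60 points above WT (0.95 to 2.28) and DMD 0.823 points (0.225 to 1.43). Among both leaning classes the thinned shares were 48.0%, 54.5% and 42.4%, with BMD 6.48 points above WT (1.40 to 11.5) and DMD at -5.59 points (-10.3 to -0.840). With the endothelial minimum set at 1.0%, the difference of DMD from WT in the share of all nuclei was 0.075 points (-0.374 to 0.534), while that of BMD was 1.09 points (0.576 to 1.63). A share also depends on how many nuclei of every other kind were captured. Sorting and isolation of nuclei can also set them, and their part was not tested.

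**Figure D2:**
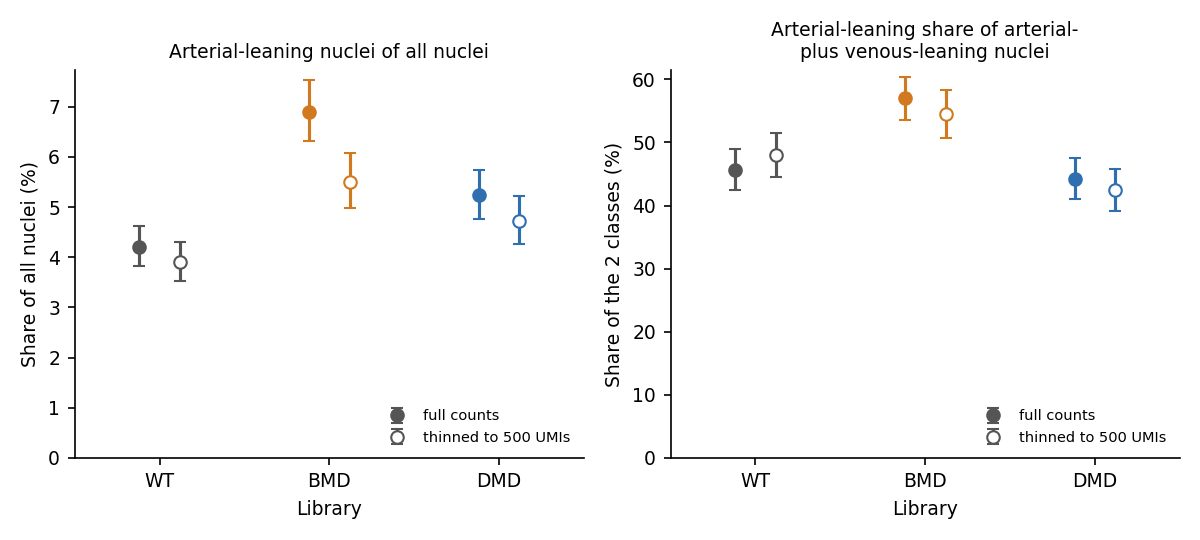
Share of arterial-leaning nuclei (vertical axes, percent, from 0) among all nuclei (left) and among arterial-leaning plus venous-leaning nuclei (right) in each library, with exact 95% intervals. Filled points use full counts and open points nuclei thinned to 500 UMIs. BMD stood highest in both panels, at 6.90% and 57.0% with full counts.

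The levels of genes in the members were compared next. Of 22250 features in the files, 4273 had at least 60 UMIs over the members of the 3 libraries and were compared. A gene was called apart when its CPM plus 10 differed at least 2-fold, which damps the ratios of low genes. In BMD against WT 57 genes were higher (1.33% of the genes compared) and 34 lower (0.796%). In DMD against WT 57 were higher (1.33%) and 24 lower (0.562%), and in DMD against BMD 44 were higher (1.03%) and 29 lower (0.679%). The first pair of comparisons shares the WT library, and 20 genes were called higher and 4 lower in both. The median ratio over all genes compared was -0.0036 on the log2 scale of CPM plus 10 in BMD and -0.0077 in DMD. From here on, ratios of single genes are log2 ratios of CPM without the added 10, with exact intervals from the counts, unless the CPM plus 10 scale is named. Counts of genes 2-fold apart or above 0 and medians over lists are all on the log2 scale of CPM plus 10.

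**Figure D3:**
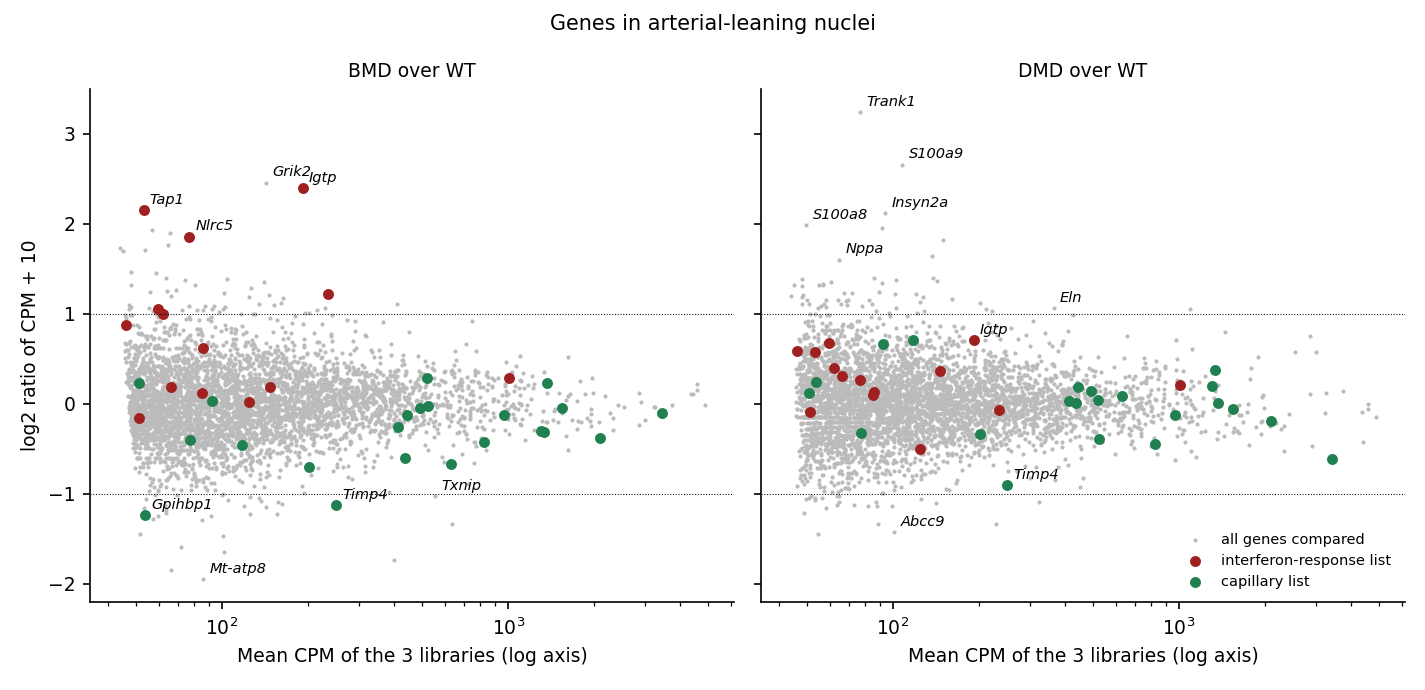
log2 ratio of CPM plus 10 against WT (vertical axis) for the 4273 genes compared, by their mean CPM in the 3 libraries (horizontal log axis), in BMD (left) and DMD (right). Red points are genes of the interferon-response list and green points genes of the capillary list, and dotted lines mark a 2-fold ratio. Igtp, Tap1 and Nlrc5 lay above the line in BMD and under it in DMD.

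Genes of the interferon response and of antigen presentation had the highest median ratio in BMD among the gene lists, markers of other cell types left aside. Among those markers, the 10 cardiomyocyte genes compared had a median of 0.90 on the CPM plus 10 scale. Interferon-gamma switches on the transcription factor Irf1, which in turn helps to switch on genes that cut peptides, carry them into the endoplasmic reticulum and load them onto class I molecules. Interferon-inducible GTPases such as Igtp are further targets. Of 39 listed genes, 14 had at least 60 UMIs. In BMD 5 of these 14 were at least 2-fold above WT, beside the 1.33% of all genes compared, none was 2-fold lower, and 13 had ratios above 0. The count was 3 with barcodes of at least 1000 UMIs, 3 with selection on nuclei thinned to 500 UMIs and 2 with the endothelial minimum at 1.0%. These counts keep the minimum of 60 UMIs, which 2466, 3900 and 2421 genes met in these settings. With barcodes of at least 1000 UMIs Igtp, Tap1, Nlrc5 and Psmb9 were still past 2-fold. Their ratios were then 3.05, 2.53, 1.29 and 1.06 on the CPM plus 10 scale. The median of the 14 genes was 0.75 on the CPM plus 10 scale in BMD and 0.28 in DMD, where none of the 14 was 2-fold apart from WT. The list was chosen with earlier results of these data known.

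Irf1, a transcription factor of the response, stands on the list of leukocyte adhesion and inflammation and is not among the 5. It had 49.2, 112 and 84.3 CPM, with a ratio of 1.18 in BMD (0.38 to 2.05). On the CPM plus 10 scale its ratio in BMD was 1.04, and 0.069 with barcodes of at least 1000 UMIs, 0.74 with selection on thinned nuclei and 0.55 with the endothelial minimum at 1.0%, all under 2-fold. Nlrc5, the activator of class I genes, had 34.7, 152 and 43.4 CPM, with a ratio of 2.13 (1.25 to 3.14). For both factors BMD was the highest library, and the interval of Irf1 in DMD, -0.11 to 1.72, reached below 0.

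Of the peptide pathway, Tap1, a subunit of the peptide transporter, had 17.4 CPM in WT, 112 in BMD and 30.7 in DMD. The ratio of BMD over WT was 2.68 (1.48 to 4.19) and rests on 6 UMIs in WT against 58 in BMD. Psmb9, a subunit of the immunoproteasome, had 34.7, 82.7 and 61.3 CPM, with a ratio of 1.25 in BMD (0.30 to 2.31). On the CPM plus 10 scale it was under 2-fold with thinned nuclei, at 0.56, and with the endothelial minimum at 1.0%, at 0.70. The class I light chain B2m had 894, 1092 and 1030.0 CPM, with a ratio of 0.29 (0.09 to 0.49), and the class I genes RT1-A1 and RT1-CE10 had ratios of 0.02 and 0.20, within counting error. Reads of class I genes can be split among near-identical copies, so single RT1 levels are uncertain. Whether these genes differ in their ratios was not tested.

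Among the GTPases, Igtp had 66.5, 392 and 115 CPM, on 23, 204 and 45 UMIs. For BMD its ratio was 2.56 (1.93 to 3.25), and for DMD 0.79 (0.03 to 1.58). Irgm, of the same family, had 52.1, 144 and 46.0 CPM. Wars1, a tryptophan tRNA synthetase that interferon-gamma induces, had 26.0, 108 and 28.1 CPM. Igtp, Wars1, Nlrc5, Tap1 and Irgm were the 5 genes furthest below BMD in DMD among the genes at least as high in members as in non-endothelial nuclei, with ratios of DMD over BMD between -1.94 and -1.65. The BMD level counted toward that limit, and in WT Wars1, at 26.0 against 26.8 CPM, and Tap1, at 17.4 against 17.6 CPM, were at the level of non-endothelial nuclei, as was Wars1 in DMD, at 28.1 against 28.0 CPM. With the endothelial minimum at 1.0% the ratio of Irgm in DMD over BMD was -0.74 on the CPM plus 10 scale, and with selection on thinned nuclei that of Wars1 was -0.97, both under 2-fold.

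**Figure D4:**
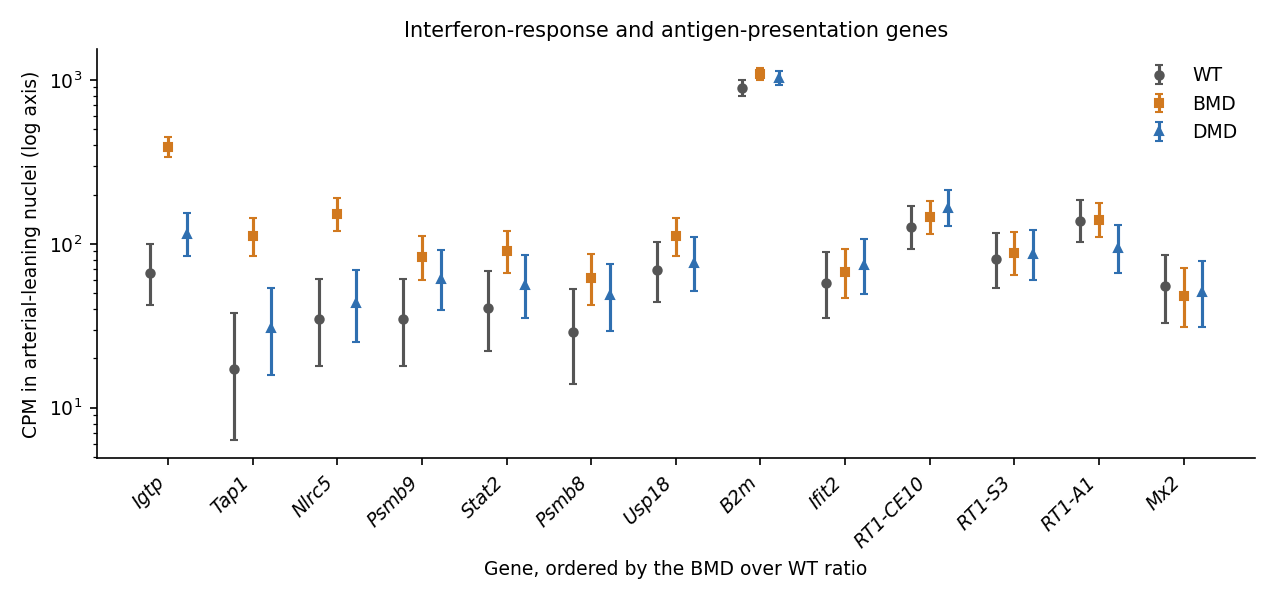
CPM (vertical log axis) of 13 genes of the interferon-response list with at least 60 UMIs in arterial-leaning nuclei of WT (circles), BMD (squares) and DMD (triangles), with exact Poisson 95% intervals. From Igtp to Psmb9 the BMD level was at least 2-fold above WT on the CPM plus 10 scale, and B2m and the RT1 genes were under 2-fold apart.

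Shares of nuclei with a UMI, and the levels in other classes, were set beside these values. A UMI of Igtp was found in 23 WT, 130 BMD and 39 DMD members, which is 5.49%, 27.7% and 9.44%, and at an equal depth of 500 UMIs in 3.58%, 14.5% and 4.12%. In non-endothelial nuclei, at full depth, the shares were 6.14%, 16.1% and 8.17%. The full-depth WT share was lower in members, but their median depth was also lower, at 768 against 1343 UMIs. Shares at unequal depth do not place the members under a background. By level Igtp was higher in WT members, at 66.5 against 38.3 CPM. At an equal depth of 500 UMIs, at least 1 UMI of any listed interferon-response gene was found in 58.0% of WT members (53.1 to 62.8), 73.2% of BMD members (68.9 to 77.2) and 62.2% of DMD members (57.4 to 66.9). In non-endothelial nuclei at the same depth the shares were 39.5%, 45.1% and 48.6%, at full median depths of 1343, 1637 and 1355 UMIs. Venous-leaning nuclei thinned to 500 UMIs had 73.7%, 81.1% and 73.5%, above the members in each library. Igtp had 114, 473 and 80.7 CPM in venous-leaning nuclei and 38.3, 102 and 54.8 CPM in non-endothelial nuclei. For Igtp, BMD was thus the highest library in each of these classes, and whether the classes differ in their ratio was not tested. The median over the same 14 genes was 0.47 in venous-leaning and 0.23 in non-endothelial nuclei of BMD. In barcodes of at most 50 UMIs, which hold free RNA, Igtp had 46.3, 132.5 and 60.6 CPM, under the members' level in each library. The markers of T, B or NK cells summed to 255, 158 and 194 CPM in the members, led by Ptprc at 156, 65.4 and 135 CPM, and to 431, 394 and 477 CPM in non-endothelial nuclei. Their part in these levels was not tested.

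The starts of these genes are shown for the letters of the known interferon-response elements. The GAS motif, TTCNNNGAA, is the element of the response to interferon-gamma, and interferon regulatory factors bind an ISRE-like motif, TTTC and TTTC with any 2 bases between them, each searched on both strands without a mismatch. Sequences of 300 bases, from 250 before to 50 after the gene start, came from RefSeq on the rat build GRCr8, and 4 of the 6 interferon-response and inflammation genes that were 2-fold higher in BMD had one. Of 27457 rat promoters, 8.68% held a GAS match and 3.77% an ISRE-like match. Matches were found in Irf1, Igtp and Tap1 and none in the bases searched for Psmb9. The bases before the starts of Tap1 and Psmb9 (chr20:4668750-4668999, plus strand) lie on opposite strands and overlap at their far ends. These genes are therefore not separate cases, and bases further from the Psmb9 start were not searched as its own. The 250 bases before the start are given 5′ to 3′ on the strand of the gene, with the matches in capitals, for Irf1 (chr10:38417685-38417934, plus strand), Igtp (chr10:42874797-42875046, plus strand) and Tap1 (chr20:4668544-4668793, minus strand). The GAS match of Irf1 begins 142 bases before the start. In Igtp a GAS match begins 114 and an ISRE-like match, on the opposite strand, 103 bases before the start, and the ISRE-like match of Tap1 begins 121 bases before it. A match is a description of the letters, and binding was not measured.
Irf1: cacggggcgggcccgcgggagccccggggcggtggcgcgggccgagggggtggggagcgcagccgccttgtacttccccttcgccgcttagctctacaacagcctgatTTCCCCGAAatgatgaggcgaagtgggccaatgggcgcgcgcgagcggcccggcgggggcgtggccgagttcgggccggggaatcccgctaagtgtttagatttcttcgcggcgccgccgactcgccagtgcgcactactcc
Igtp: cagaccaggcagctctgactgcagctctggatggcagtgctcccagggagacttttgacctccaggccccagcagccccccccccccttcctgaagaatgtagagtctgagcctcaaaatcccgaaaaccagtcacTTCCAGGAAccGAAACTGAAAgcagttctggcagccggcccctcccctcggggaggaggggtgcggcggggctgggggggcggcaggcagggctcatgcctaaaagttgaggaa
Tap1: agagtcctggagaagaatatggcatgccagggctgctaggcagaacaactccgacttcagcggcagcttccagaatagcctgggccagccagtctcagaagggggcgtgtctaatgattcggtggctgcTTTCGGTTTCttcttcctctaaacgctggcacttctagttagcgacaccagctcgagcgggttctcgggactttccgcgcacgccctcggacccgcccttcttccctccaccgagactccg

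Lists of capillary function and fatty acid uptake had medians below 0 in BMD and above 0 in DMD, with few genes past 2-fold. Heart capillaries take fatty acids from lipoproteins by means of lipoprotein lipase (Lpl), which Gpihbp1 anchors at their surface, and pass them on by binding proteins such as Fabp4. Of 25 listed capillary genes, 22 had at least 60 UMIs, and in BMD 2 of them were at least 2-fold lower, beside 0.796% of all genes compared, and none higher. Their median was -0.28 in BMD, where 4 of 22 ratios were above 0, and 0.02 in DMD, where 13 were. Of 23 fatty acid genes, 12 had at least 60 UMIs, with a median of -0.30 in BMD and 0.14 in DMD. In BMD 1 of the 12 was at least 2-fold lower and 1 was above 0, and in DMD 9 were above 0. Gpihbp1, Lpl, Fabp4, Mgll, Meox2 and Tcf15 stand on both lists, so that the lists are not independent of each other.

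Gpihbp1 (ENSRNOG00000007475) had 63.6 CPM in WT, 21.1 in BMD and 76.7 in DMD, on 22, 11 and 30 UMIs. For BMD its ratio was -1.59 (-2.78 to -0.48), and for DMD 0.27 (-0.57 to 1.13). The ratio in BMD was -0.39 on the CPM plus 10 scale, under 2-fold, among barcodes holding 1000 UMIs or more. Lpl had 706, 440.3 and 749 CPM, with a ratio of -0.68 in BMD (-0.95 to -0.41). Fabp4 had 1289.9, 1036 and 1674 CPM, with ratios of -0.32 (-0.50 to -0.13) and 0.38 (0.20 to 0.55), so that it was lower than WT in BMD and higher in DMD. Mgll, which splits monoglycerides, had 1322, 1071 and 1521 CPM and the same order of libraries. In venous-leaning nuclei Fabp4 had 2065, 1484 and 2170 CPM, and Lpl 599, 276 and 562 CPM. BMD was the lowest library there too.

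Cav1, Cavin1, Txnip and Timp4 were also lowest in BMD. Cav1, the coat protein of caveolae, had 917 CPM in WT, 577 in BMD and 779 in DMD, with a ratio of -0.67 in BMD (-0.90 to -0.44). Cavin1, which stabilises them and was chosen after its values were seen, had 350.0, 194 and 284 CPM, with a ratio of -0.85 (-1.25 to -0.46). Txnip, a glucose-regulated inhibitor of thioredoxin, had 625, 302 and 741 CPM, with ratios of -1.05 (-1.36 to -0.75) and 0.25 (-0.01 to 0.51). Timp4, an inhibitor of metalloproteinases, had 382, 169 and 199 CPM and was lower in both, with ratios of -1.17 (-1.58 to -0.77) and -0.94 (-1.36 to -0.52). In DMD Txnip and Cavin1, at -0.30 (-0.69 to 0.08), were within counting error of WT. With the endothelial minimum at 1.0%, the ratios of Timp4 and Txnip in BMD were -0.78 and -0.82 on the CPM plus 10 scale, under 2-fold.

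Among regulators of vessel identity few genes were apart. Of 22 Notch pathway genes 12 were compared, and of 15 VEGF and angiopoietin genes 9, with none at least 2-fold apart in either direction in any of the 3 comparisons. Maml2, a co-activator of Notch, had 2085, 1927 and 1820 CPM. Jag1, a Notch ligand, had 75.2, 160 and 115 CPM, with a ratio of 1.09 in BMD (0.43 to 1.78), which is under 2-fold on the CPM plus 10 scale. Nrp1, a co-receptor for VEGF, had 2771, 2265 and 1924 CPM, with ratios of -0.29 (-0.42 to -0.17) and -0.53 (-0.67 to -0.39), and was highest in WT. Tek, the angiopoietin receptor, had 1064, 1031 and 1071 CPM and did not differ beyond counting error. Vegfc, a ligand named after its values were seen, had 428, 448 and 233 CPM, with a ratio of -0.88 in DMD (-1.27 to -0.49). The medians of the VEGF list were -0.25 in BMD and -0.24 in DMD, and those of the Notch list -0.10 and -0.12.

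Of 29 listed transcription factors of endothelial cells, Sox17 not among them, 22 were compared and none was 2-fold apart, with medians of -0.13 in BMD and -0.04 in DMD. Tcf4, the most abundant, had 4405, 4888 and 4378 CPM. Epas1, a hypoxia-inducible factor, had 1848, 1438 and 1500.2 CPM, with ratios of -0.36 (-0.52 to -0.21) and -0.30 (-0.47 to -0.14). Erg, a factor that keeps endothelial identity, had 599, 519 and 516 CPM, with both ratios within counting error. Of the junction genes 20 of 25 were compared, again with none 2-fold apart, and Cdh13 had 5038, 5003 and 4531 CPM.

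Eln, Col1a1 and Fn1, which encode proteins of the matrix, were 2-fold higher in DMD. Eln, of the arterial list, had 217 CPM in WT, 415 in BMD and 463 in DMD, with ratios of 0.94 (0.55 to 1.34) and 1.09 (0.70 to 1.5). Both dystrophic libraries were above WT, and the ratio in DMD was 0.65 on the CPM plus 10 scale, under 2-fold, with barcodes of at least 1000 UMIs. Of 25 genes listed for endothelial to mesenchymal transition, in which endothelial cells take on features of fibroblasts, 8 were compared. In DMD 2 of them, Col1a1 and Fn1, were 2-fold higher, beside 1.33% of all genes compared, all 8 were above 0, and the median was 0.45. In BMD none was 2-fold apart and the median was 0.31. Col1a1, the main chain of collagen I, had 52.1, 28.8 and 135 CPM, with a ratio of 1.38 in DMD (0.58 to 2.24). Fn1, fibronectin, had 34.7, 55.8 and 84.3 CPM, with a ratio of 1.28 (0.29 to 2.37). The transcription factor Zeb1 had 338, 479 and 473 CPM, with ratios of 0.50 (0.18 to 0.83) and 0.48 (0.14 to 0.83). Fibroblast markers, of which Col1a1 is one, summed to 821, 652 and 1479.8 CPM in the members and to 6136, 3604 and 7305 CPM in non-endothelial nuclei, with Gsn the most abundant. The selection had capped Dcn, Pdgfra and Bicc1 of these markers, so the sum in the members is partly set by it. The summed markers moved in the same order as Col1a1, and their part in its level was not tested. With free RNA subtracted the ratio of Col1a1 in DMD was 0.66, and without nuclei over 5% mitochondrial UMIs those of Col1a1 and Fn1 were 0.77 and 0.74, under 2-fold on the CPM plus 10 scale.

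Genes of BMP and TGF-beta signalling, which guide vessel maturation, had 23 of 32 members compared, with none 2-fold apart from WT. Their median was -0.06 in BMD and 0.15 in DMD. Id1, a direct target of BMP receptors, had 338, 286 and 511 CPM, with ratios of -0.24 (-0.60 to 0.12) and 0.60 (0.26 to 0.94). Smad6 and Smad7, inhibitors that the same pathway induces and that were named after their values were seen, had ratios of 0.69 (0.32 to 1.06) and 0.75 (0.28 to 1.22) in DMD. Eng, a co-receptor, had 891, 1040.2 and 997 CPM, with a ratio in DMD of 0.16 (-0.06 to 0.38). Vwf, the clotting factor that marks larger vessels and veins, had 324, 325 and 529 CPM, with a ratio of 0.71 in DMD (0.37 to 1.05). Of these genes Id1, Smad6, Smad7 and Vwf were above WT in DMD beyond counting error, by less than 2-fold, and Eng was not.

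**Figure D5:**
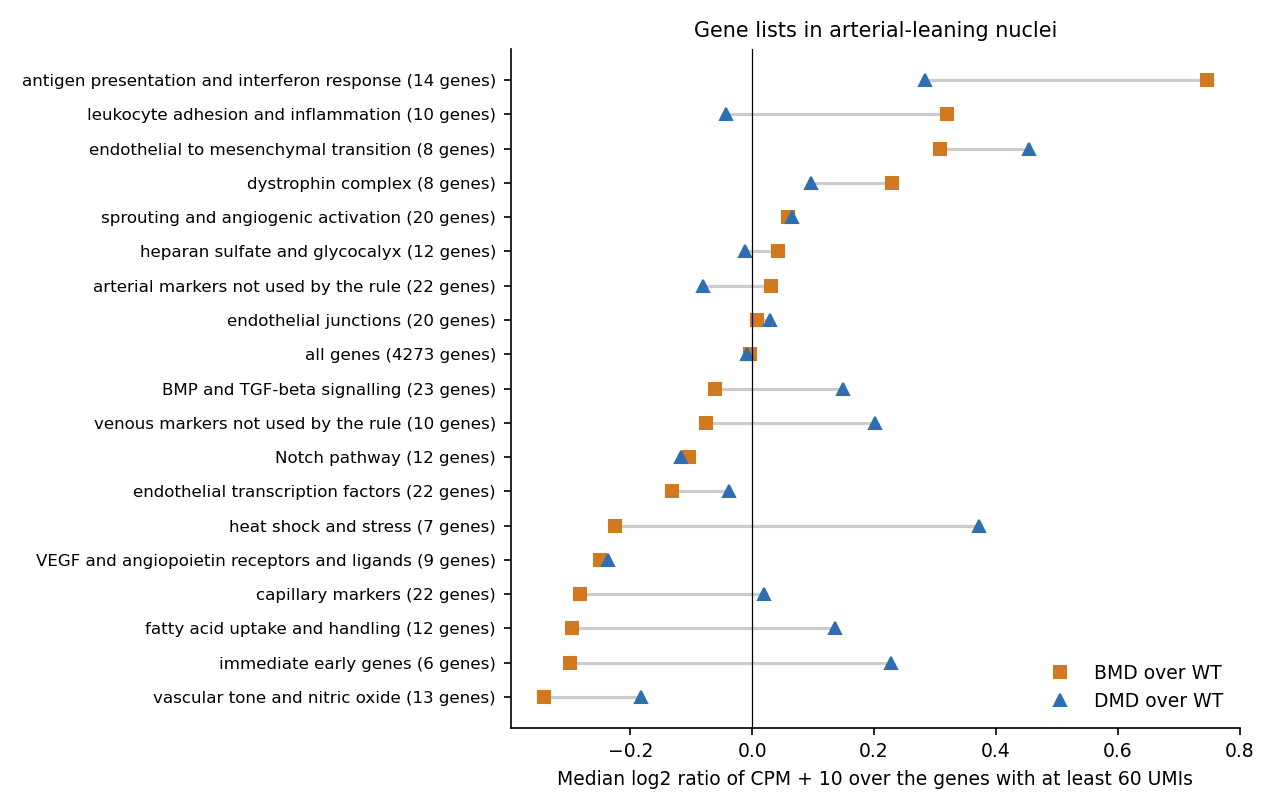
Median log2 ratio of CPM plus 10 against WT (horizontal axis) over the genes of each list with at least 60 UMIs in arterial-leaning nuclei, for BMD (squares) and DMD (triangles). The number of genes stands behind each list, and all 4273 genes are shown as one row near 0. Among the gene lists drawn, the interferon-response list had the highest median in BMD, at 0.75, and the vascular tone list the lowest, at -0.34.

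Of 29 genes listed for leukocyte adhesion and inflammation 10 were compared, and 2 of them, Irf1 being one, were 2-fold higher in BMD, beside 1.33% of all genes compared. The other stands on the interferon-response list too and is among the 5 genes counted there, so these lists are not independent of each other. The median of the leukocyte and inflammation list was 0.32 in BMD and -0.04 in DMD. Of the stress genes 7 of 20 were compared, and Txnip and Ddit4 were 2-fold lower in BMD, beside 0.796% of all genes compared. Ddit4 had 72.3, 30.8 and 71.6 CPM, and with counts from the aggregate of all libraries its ratio in BMD was -0.76 on the CPM plus 10 scale, under 2-fold. Of 23 immediate early genes 6 were compared, with a median of -0.30 in BMD and 0.23 in DMD, and Jun had 66.5, 38.5 and 118 CPM. Of 39 sprouting genes 20 were compared, of which Col18a1 was 2-fold higher in BMD, beside 1.33% of all genes, at 28.9, 71.1 and 66.4 CPM. Its ratio in BMD was 0.73 on the CPM plus 10 scale with the endothelial minimum at 1.0%, 0.88 without nuclei over 5% mitochondrial UMIs and 0.97 as the mean over nuclei, all under 2-fold. Of 20 venous genes not used to select, 10 were compared, of which 1 was 2-fold lower in BMD, beside 0.796% of all genes. Of 28 glycocalyx genes 12 were compared and none was apart, and Sulf1 had 321, 563 and 463 CPM. In the vascular tone list, 13 of 32 genes were compared and none was 2-fold apart. Nos3, the endothelial nitric oxide synthase, had 448, 531 and 455 CPM, with ratios of 0.24 (-0.05 to 0.54) and 0.02 (-0.30 to 0.34). Of 24 cell division genes none reached 60 UMIs, and they summed to 57.8, 55.8 and 74.1 CPM, so that division was hardly seen in any library.

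The targeted gene was present in the members of all libraries. Dmd had 943 CPM in WT, 1263 in BMD and 989 in DMD, with ratios of 0.42 (0.23 to 0.62) and 0.07 (-0.15 to 0.29). The deletions take out a few exons, and counts summed over the whole gene do not check the genotype. Utrn, utrophin, the homologue of dystrophin, was the most abundant gene of the complex at 2229.9, 2375 and 1924 CPM. Of 18 genes of the dystrophin complex 8 were compared, with none 2-fold apart from WT. Sntb1, a syntrophin named after its values were seen, had 95.4, 194 and 153 CPM, with a ratio of 1.02 in BMD (0.45 to 1.64). Dtna, dystrobrevin alpha, had 46.3, 99.98 and 33.2 CPM and was 2-fold lower in DMD than in BMD, though with selection on thinned nuclei its ratio was -0.79 on the CPM plus 10 scale, under 2-fold. Cardiomyocyte markers summed to 1255, 2125 and 1827 CPM in the members, in the same order of libraries as Dmd and Sntb1, and their part in these levels was not tested.

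Beside the lists, genes were named by how far both dystrophic libraries lay from WT on the same side. Among 2705 genes at least as high in the members as in non-endothelial nuclei, with levels pooled over the 3 libraries, the 10 highest were Trank1, Grik2, Fbxo7, Rbm27, Insyn2a, Sh2d4b, Apoe, Ippk, Prim1 and Lactb. Levels in the dystrophic libraries counted toward that limit, and in WT 4 of the 10 lay under non-endothelial nuclei, namely Grik2 at 40.5 against 50.2 CPM, Fbxo7 at 14.5 against 33.7, Rbm27 at 63.6 against 111 and Prim1 at 28.9 against 41.1, so that their place among these genes is not a result about the members. Trank1 had 3, 29 and 65 UMIs in the 3 libraries, which is 8.68, 55.8 and 166 CPM. For BMD its ratio was 2.68 (0.99 to 5.04), and for DMD 4.26 (2.65 to 6.57). In venous-leaning nuclei it had 0, 10.5 and 26.9 CPM and in non-endothelial nuclei 1.13, 9.27 and 15.3 CPM, with WT the lowest each time. Grik2, a kainate receptor for glutamate, had 40.5, 267 and 120 CPM, with ratios of 2.72 (1.93 to 3.63) and 1.57 (0.68 to 2.54). With the endothelial minimum at 1.0% its ratio in DMD turned to -0.050 on the CPM plus 10 scale. It was found in 10 WT, 68 BMD and 26 DMD members, at an equal depth of 500 UMIs in 1.91%, 10.4% and 3.87% of them, beside 2.04%, 3.35% and 3.13% of non-endothelial nuclei at full depth. It was more abundant in venous-leaning nuclei, at 356, 745 and 466 CPM. Apoe, the apolipoprotein, had 40.5, 94.2 and 123 CPM, with ratios of 1.22 (0.34 to 2.19) and 1.60 (0.72 to 2.57). Rbm27, an RNA-binding protein, had 63.6, 158 and 151 CPM. Of the 10 genes, 9 were under 2-fold or of the other sign in at least 1 comparison with WT under some alternative, Trank1 being the exception. With selection on thinned nuclei, for example, the ratio of Rbm27 in BMD was 0.60 on the CPM plus 10 scale where it had been 1.19, that of Apoe 0.68 where it had been 1.05, and that of Fbxo7 in DMD 0.54 where it had been 1.20. The ratios of the other named genes on this side lay between 1.18 and 2.43.

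The 10 lowest were Cyp7b1, Galnt15, Syndig1, Timp4, Rpl34, Pde5a, Rack1, Fam83b, Lats2 and Slc22a15. Here the WT level counted toward the limit, and Cyp7b1 lay under non-endothelial nuclei in BMD, at 90.4 against 110.4 CPM, and in DMD, at 89.4 against 109 CPM, as did Rack1 in DMD, at 69.0 against 74.0 CPM. Cyp7b1, an oxysterol hydroxylase, had 197, 90.4 and 89.4 CPM, with ratios of -1.12 (-1.69 to -0.56) and -1.14 (-1.77 to -0.53). On the CPM plus 10 scale it was under 2-fold with selection on thinned nuclei, at -0.85 in BMD and -0.47 in DMD, and with the endothelial minimum at 1.0%, at -0.95 and -0.66. Galnt15, a transferase that starts O-glycans, had 145, 69.2 and 51.1 CPM. Among barcodes holding 1000 UMIs or more its ratio in BMD was -0.11 on the CPM plus 10 scale where it had been -0.96, and the ratio of Rpl34 in DMD turned from -0.87 to 0.61. Pde5a, which breaks down cyclic GMP, had 86.8, 44.2 and 40.9 CPM, with ratios of -0.97 (-1.82 to -0.14) and -1.09 (-2.06 to -0.16). Lats2, a kinase of the Hippo pathway, had 202, 102 and 115 CPM. In all of these WT was the highest library.

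Fam163a, Hmgcll1, Gpihbp1, Trank1 and Jun were the 5 genes furthest above BMD in DMD among the same 2705 genes. Among these, Jun lay under non-endothelial nuclei in BMD, at 38.5 against 84.2 CPM, since levels pooled over the libraries set that limit. Fam163a had 124, 32.7 and 148 CPM in WT, BMD and DMD, and Hmgcll1 95.4, 19.2 and 84.3 CPM. For Fam163a, Hmgcll1 and Gpihbp1, BMD was the library apart, and DMD did not differ from WT beyond counting error.

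Among 1568 genes that were higher in non-endothelial nuclei than in the members, Nppa, Trim55, Cryab and Gli3 were highest in both dystrophic libraries and Gucy1a2, Lipa, Abcc9 and Mt-atp8 lowest. On the CPM plus 10 scale, with the endothelial minimum at 1.0%, Gucy1a2 turned to 0.15 in BMD and 0.56 in DMD and Abcc9 to 0.52 in BMD, and with selection on thinned nuclei Trim55 was at 0.57 in BMD. Nppa, the natriuretic peptide of cardiomyocytes, had 20.2, 92.3 and 81.8 CPM, and with free RNA subtracted its ratio turned to -0.89 on the CPM plus 10 scale in both BMD and DMD. Abcc9, a channel subunit of pericytes, had 168, 78.8 and 56.2 CPM. Cardiomyocyte markers, with 12 of 13 found in the files and each with a UMI, summed to 1255, 2125 and 1827 CPM in the members against 14468, 18899 and 13219.7 CPM in non-endothelial nuclei, led by Ryr2. Of these markers 10 were compared, and 3 were 2-fold higher in BMD and 4 in DMD, beside 1.33% of all genes compared in each. These were Nppa, Tnni3 and Actc1 in both and Tnnt2 in DMD. With free RNA subtracted none of them was 2-fold higher, with Tnni3 at 0 and Actc1 at -1.14 in both and Tnnt2 at -0.61 in DMD on the CPM plus 10 scale. The subtracted share was set from the summed cardiomyocyte markers, Nppa among them. Their fall after the subtraction was therefore built in, and it does not show where these transcripts came from. Cryab, which is not one of the markers, was at 0.23 in BMD and 0 in DMD after the subtraction. Markers of pericytes or smooth muscle summed to 338, 148 and 120 CPM, led by Abcc9. The cardiomyocyte sum, of which Nppa is part, had the same order of libraries as Nppa, Trim55, Cryab and Gli3. The pericyte sum had the order of Abcc9, which is part of it. Gucy1a2, Lipa and Mt-atp8 were instead lowest in BMD, at 40.4, 40.4 and 30.8 CPM against 43.4, 46.0 and 79.2 CPM in DMD. The part of either sum in these levels was not tested.

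Markers of macrophages or monocytes summed to 315, 273 and 670 CPM in the members, led by Ptprc in WT and BMD, at 156 and 65.4 CPM, and by S100a9 in DMD. S100a8 and S100a9, genes of neutrophils and monocytes, were 2-fold higher in DMD. S100a9 had 28.9, 59.6 and 235 CPM in the members and 391, 429 and 2666 CPM in barcodes of at most 50 UMIs, and S100a8 20.2, 19.2 and 110 CPM against 174, 254 and 1671 CPM. With that free RNA subtracted, both were no higher in DMD than in WT. Endocardial markers summed to 983, 950 and 774 CPM, mostly Hmcn1, and lymphatic markers to 150, 108 and 184 CPM, with Flt4 the most abundant at 101, 59.6 and 76.7 CPM. The selection had capped Nrg1, Cgnl1 and Pkhd1l1 of the former and Ccl21, Reln and Mmrn1 of the latter. Both sums, and the genes that lead them, are therefore partly set by it. Schwann cell markers summed to 57.8, 63.4 and 79.2 CPM, with Sox10 at 0 UMIs, and Cd79a and Ms4a1 of the B cell markers were also at 0 UMIs.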

How the data were processed

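Nuclei of 3 heart libraries, 1 each of WT, BMD and DMD, were analysed. The deposited files hold UMI counts, not normalized, that the authors made with Cell Ranger, and the submitters' processing notes name the build rn6. Whether introns were counted is not given in the sources used here, and the methods and labels name a 3′ kit where the paper's results name a 5′ one. The file listed for WT is an aggregate of all libraries, from which WT barcodes were taken by suffix. It holds BMD and DMD thinned to 76.1% and 92.9% of the counts in their own files, which were used instead. File headers name different Cell Ranger versions, and their part was not tested.

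The barcodes with most UMIs were taken as nuclei, as many as the study gives. Counts were summed over the members of a library and scaled to CPM. No doublet or mitochondrial filter was applied. Scrublet (scanpy 1.11.5) called 8.21%, 5.11% and 10.95% of nuclei doublets and 8, 6 and 16 members. Intervals came from scipy 1.17.1 and TMM factors from edgeR 4.0.16. The ratio functions were tested on simulated data. Genes were named by rank, as the report states for each group, and from each list by their UMIs and by a 2-fold ratio. Gja5, Jag1, Id1, Lpl and RT1-A1, which stand outside these rules, were chosen after their values were seen. The members, lists and rules were chosen with earlier results of these data known. Listed genes that are not in the files were not analysed here, and a few listed genes are counted but not reported here by name.

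Alternatives were barcodes of at least 1000 UMIs, selection on nuclei thinned to 500 UMIs, sums of at least 3, an endothelial minimum of 1.0%, doublets removed, nuclei over 5% mitochondrial UMIs removed, counts from the aggregate, TMM scaling, free RNA subtracted (8.24%, 9.76% and 12.5% of the members' UMIs), 5 CPM added, no UMI minimum, and the mean over nuclei. The share of free RNA was the cardiomyocyte markers' share in the members over their share in barcodes of at most 50 UMIs. The subtraction therefore lowers those markers by design. Trying the alternatives on the count of interferon-response genes was added after the data were seen.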

Additional observations from a re-analysis of the deposited data

How the results depend on the processing

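Of the shares and counts of genes, 85 values under an alternative stayed within the spread or 1.5 times set for them and 27 moved. Of the ratios of named genes 1128 did so, 22 moved and 14 changed sign. Of 81 such ratios at or past 2-fold, 61 were under 2-fold or of the other sign under at least 1 alternative. With barcodes of at least 1000 UMIs, BMD was above WT by 3.62 points in the share of all nuclei and by 18.9 points among both leaning classes. There 2466 genes reached 60 UMIs and were compared. Of these, 87 were higher and 58 lower in DMD than in WT, and 28 were higher in DMD than in BMD. Of the interferon-response genes that reached 60 UMIs there, 3 were 2-fold higher in BMD. On the log2 scale of CPM plus 10, Dcn, a gene the selection capped, was then at 0.14 in BMD, and Rpl34 at 0.61 in DMD. With selection on thinned nuclei the points were 1.60 and 6.48, and among the 3900 genes compared 3 interferon-response genes were higher. With the endothelial minimum at 1.0% the shares of BMD and DMD were 1.09 and 0.075 points above WT. Of the 2421 genes compared there, beside 4273 in the main analysis, 34 were higher and 17 lower in BMD, and 2 interferon-response genes were higher. Gucy1a2 was then at 0.15 in BMD and 0.56 in DMD, Abcc9 at 0.52 in BMD and Grik2 at -0.050 in DMD. With free RNA subtracted, 95 genes were higher and 55 lower in BMD, 88 higher and 71 lower in DMD, and 60 lower in DMD than in BMD. Nppa was then at -0.89 and Actc1 at -1.14 in both, Tnnt2 at -0.61 and S100a8 at -0.72 in DMD, and Gsn at -2.80 and S100a9 at -1.57 in DMD over BMD. Nppa, Actc1 and Tnnt2 are among the markers that set the share of free RNA, so their fall was built in. With 5 CPM added, 37 genes were lower in DMD. Without a UMI minimum 213 genes were higher and 243 lower in BMD, 350 higher and 240 lower in DMD, 285 higher and 159 lower in DMD than in BMD, and 9 interferon-response genes were higher in BMD, since more low genes were compared. The cause of the other changes was not tested. No paired analysis was possible because each genotype had 1 library. Low counts limit the precision, as the intervals show.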
